A study of Mus musculus with 8 samples.

Results

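The comparison covers splenic regulatory T cells (Tregs) of tumor-free C57BL/6 mice, SRC-3KO against control, with 4 of the 8 libraries of the series and 2 libraries per group. The libraries were chosen by their labels alone, from the deposited table of raw counts of 55487 genes. Both SRC-3KO libraries were made from GFP-positive Tregs, and both names contain Tam1, a term that the sources used here do not explain. Nor do they state the allele behind SRC-3KO, its driver or the ages of the mice. Control replicate 1 is named wild type, and its source label names Tregs and does not mention GFP, although the shared protocol text describes a GFP sort. Control replicate 2 is named for Foxp3-Cre, a line in which Cre recombinase is made in Foxp3-expressing cells, and its source label is GFP-positive. They are called the wild-type control and the Foxp3-Cre control below, and each is shown by itself. Only the Foxp3-Cre control shares the GFP label with the SRC-3KO cells, and neither control carries Tam1, so an effect of Tam1 cannot be told apart from one of genotype. The labels do not say that replicates came from separate animals, so p-values measure only the spread between these libraries, which may be technical.

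Tregs are CD4 T cells that depend on the transcription factor Foxp3 and hold other immune cells in check. They sense interleukin-2 through a receptor rich in its alpha chain, Il2ra. SRC-3, the product of Ncoa3, belongs to the p160 coactivators with SRC-1 (Ncoa1) and SRC-2 (Ncoa2). Nuclear receptors and other transcription factors recruit these proteins, which bring histone-modifying enzymes to their target genes. The series asks, by its title, how Tregs without SRC-3 differ in their transcripts from wild-type Tregs.

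The libraries held 24159217 to 31075452 counts, and levels are given as CPM (counts per 1000000 counts of the library) scaled by TMM, a method that matches the bulk of genes between libraries. The wild-type control stood apart from the other 3 libraries. Among 8209 genes with a mean of at least 10 CPM, 4.04% differed at least 2-fold between the SRC-3KO libraries. Between each of them and the Foxp3-Cre control the figure was 14.4% and 12.1%, and between each of them and the wild-type control it was 74% and 74.9%. The controls differed from each other at 73.4% of these genes. In the wild-type control the actin-binding peptide gene Tmsb4x stood at 192 CPM against 11958 to 13098 in the other 3 libraries. Gm23935, annotated as a microRNA gene in the deposited counts, stood there at 21650 CPM against 186 to 298. The median GC content of the genes' longest transcripts, weighted by counts, was 53.1% there and 48.6% to 49.0% elsewhere. It also had counts for 23941 genes, against 15333 to 17915.

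**Figure D1:**
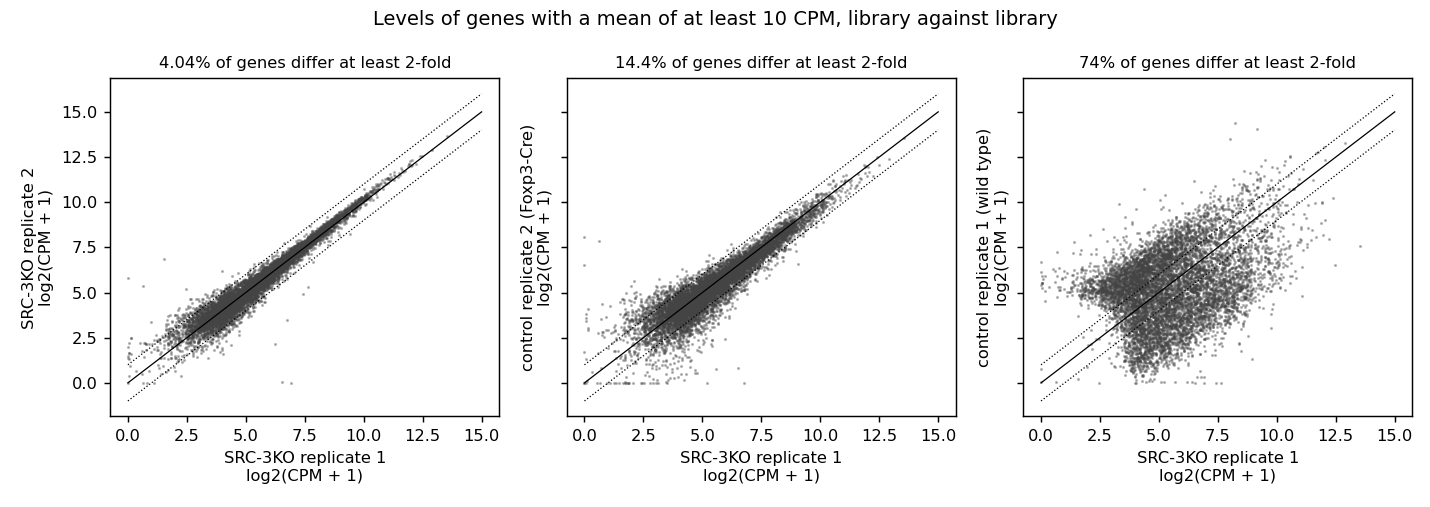
Each point is a gene with a mean of at least 10 CPM, and both axes are log2(CPM + 1) in 1 library; the solid line marks equal levels and the dotted lines a 2-fold difference. The cloud is narrow for the SRC-3KO pair (4.04% of genes past 2-fold), a little wider against the Foxp3-Cre control (14.4%) and broad against the wild-type control (74%).

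The defining markers of Tregs were present in all 4 libraries, and markers of other cells were uneven. The summed level of the 20 Treg genes was 11274 and 11740 CPM in the SRC-3KO libraries, 5237 CPM in the wild-type and 8210 CPM in the Foxp3-Cre control. Of 12 neutrophil markers, the summed level was 327 CPM in the Foxp3-Cre control and 0.0363 to 2.04 CPM in the other 3. B cell markers summed to 756 to 1630 CPM in all 4 libraries. The CD8 T and NK cell markers summed to 558 and 409 CPM in the SRC-3KO libraries against 1376 and 123 CPM in the wild-type and Foxp3-Cre controls, most of it from Nkg7. Dendritic cell markers, led by Irf8, summed to 968 and 1031 CPM against 2758 and 711 CPM. Monocyte and macrophage markers, led by Ctss, summed to 304 and 338 CPM against 83.5 and 197 CPM, so this sum was larger with SRC-3KO. Of 8 members tested, 2 (25%) exceeded either control in each SRC-3KO library and 0 fell below. Of all genes tested 23.8% were higher in this way and 16.9% lower. The macrophage markers C1qa and C1qb were at 0. Stromal and endothelial markers summed to 89.3 and 71.6 CPM against 68.2 and 26.8 CPM, also larger with SRC-3KO. Markers of conventional CD4 T cells, several of which Tregs share, were level at 1438 and 1439 CPM against 1537 and 1464 CPM. The part of these markers in the results below was not tested. In sorted bulk cells, fewer cells of a type and less RNA per cell cannot be told apart.

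Ncoa3 (ENSMUSG00000027678, mm10 chr2:165992636-166073242, plus strand) was measured at 39.6 and 26.7 CPM in the SRC-3KO libraries. It stood at 132 CPM in the wild-type and 54.1 CPM in the Foxp3-Cre control. Both SRC-3KO values lay below both controls, yet transcripts of the gene remained countable in both. The log2 fold change, SRC-3KO over control, was -1.48 (SE 0.83), which edgeR did not call (adjusted p = 0.910, 2 libraries against 2). In fits with a single control library, which has no spread of its own, it was -0.80 against the Foxp3-Cre and -2.00 against the wild-type control. Counts were also adjusted for each library's trend with GC content and length, an alternative chosen after seeing the data and called trend-removed here, and the value was then -0.89. The counts cover the whole gene, and the deleted part is not stated in the sources used here, so they check the labels only in part.

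The relatives of SRC-3 did not separate the groups. Ncoa1 stood at 7.18 and 16.2 CPM in the SRC-3KO libraries against 41.3 and 9.42 CPM in the wild-type and Foxp3-Cre controls. Ncoa2 stood at 30.8 and 25.8 CPM against 47.2 and 18.8 CPM. Both Ncoa2 values and 1 Ncoa1 value of SRC-3KO lay between the controls, and for both genes the sign of the log2 fold change depended on which control was used. All 4 libraries expressed Xist, the RNA of the inactive X chromosome (23.1 and 23.6 CPM against 66.4 and 37.6 CPM), and of the Y-linked genes Ddx3y, Kdm5d, Eif2s3y and Uty only Uty had a count, a single one in SRC-3KO replicate 1.

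Foxp3 (mm10 chrX:7573644-7595245, plus strand), the transcription factor that defines the lineage, stood at 21.1 and 10.2 CPM in the SRC-3KO libraries. It stood at 231 CPM in the wild-type and 20.5 CPM in the Foxp3-Cre control. The groups overlapped, because 1 SRC-3KO library lay above the Foxp3-Cre control. The log2 fold change of -3.01 (SE 1.30), which edgeR did not call (adjusted p = 0.910), rested on the wild-type control. In fits with a single control library it was -0.48 against the Foxp3-Cre and -3.89 against the wild-type control. Trend-removed, it was -1.67.

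Genes of Treg identity were more often higher than lower in the SRC-3KO libraries. Of 20 list members tested, both SRC-3KO libraries exceeded both controls for 10 (50%) and lay below both for 5 (25%). Over all genes tested these shares were 23.8% and 16.9%. The median log2 fold change of the list was 0.50. Trend-removed, 9 were higher and 4 lower, and the median was 0.31. Il2ra, the high-affinity chain of the interleukin-2 receptor, stood at 1824 and 1913 CPM against 1049 and 1270 CPM in the wild-type and Foxp3-Cre controls. Tnfrsf4, which encodes the costimulatory receptor OX40, stood at 3831 and 4418 CPM against 1043 and 3087 CPM. Nt5e, which encodes the adenosine-producing enzyme CD73, stood at 36.7 and 18.5 CPM against 3.62 and 9.19 CPM and had the largest fold of the higher members. For each of these 3 genes both SRC-3KO libraries exceeded either control. The 5 lower members were Cd4, Dusp4, Ikzf4, Itgae and Nrp1. Dusp4, a phosphatase that shuts off MAP kinases, stood at 17.9 and 13.9 CPM against 144 and 29.4 CPM. Ikzf4, which encodes the zinc finger protein Eos, stood at 29.5 and 35.7 CPM against 56.7 and 58 CPM, with its controls close together. Ctla4 was level with the Foxp3-Cre control, at 279 and 276 CPM against 268 CPM, and the wild-type control stood at 64.1 CPM. The medians against the wild-type and Foxp3-Cre controls alone were 0.42 and 0.29.

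**Figure D2:**
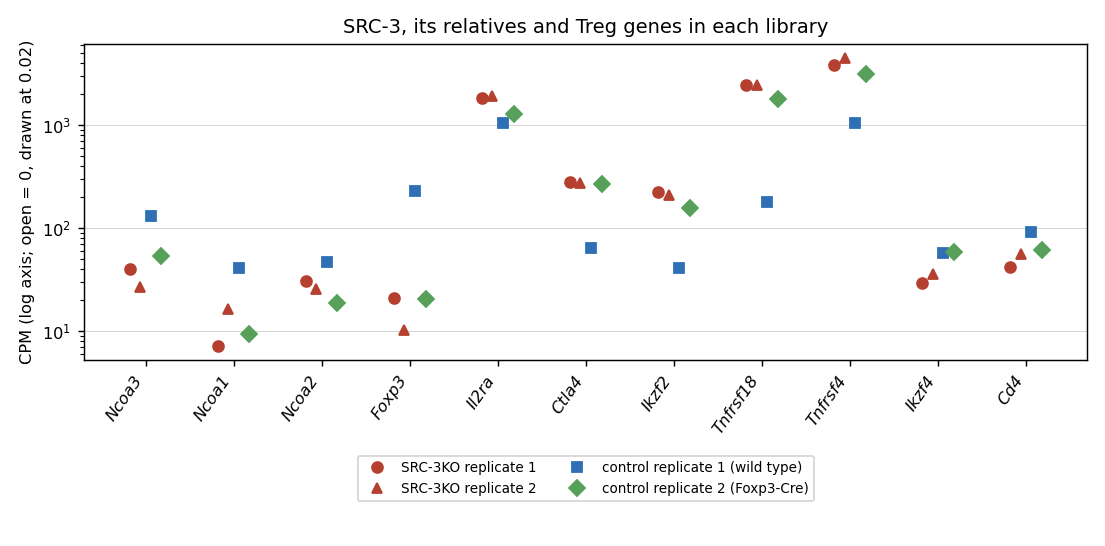
The CPM of 11 genes is plotted on a log axis for each of the 4 libraries, with red for SRC-3KO, blue squares for the wild-type and green diamonds for the Foxp3-Cre control. For Ncoa3 both SRC-3KO points lie below both controls, Foxp3 overlaps, and Il2ra, Ikzf2, Tnfrsf18 and Tnfrsf4 lie higher.

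No gene passed the test across the 4 libraries. edgeR called 0 of 14860 genes (0%), with 472 at an unadjusted p under 0.05, of which 341 had a lower and 131 a higher fitted level in SRC-3KO. The smallest adjusted p was 0.910, so adjusted p-values of single genes are not repeated below. limma-voom also called 0 genes (380 with unadjusted p under 0.05), and DESeq2 called 69 lower and 18 higher. Of the DESeq2 calls, 31 of the lower and 16 of the higher genes had a library at 0 counts. An exact permutation test of 2 against 2 libraries cannot go below a two-sided p of 0.333.

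Counted without a test, both SRC-3KO libraries lay below both controls for 2504 genes (16.9%), called lower genes here, and above both for 3534 (23.8%), called higher genes. With library totals in place of TMM the split was 21.1% lower and 18.3% higher. At least 2-fold beyond the nearer control were 658 genes (4.43%) on the lower and 604 (4.06%) on the higher side. These shares over all genes are the background for the lists below. The direction went with base composition: the median GC content of the longest transcript was 52.7% for the lower genes, 45.9% for the higher genes and 49.2% for all genes tested. Among genes over 58% GC, the median log2 fold change was -2.22 against the wild-type and -0.08 against the Foxp3-Cre control alone. Among genes of 38% to 42% GC it was 1.41 and 0.17. The part of base composition in the counts of lower and higher genes was not tested, but trend-removed counts are given for every list below except those of cell type markers. Trend-removed, 18.4% of all genes were lower and 20.5% higher. The adjustment left a part of the trend: the median log2 fold change was then 0.14 at 38% to 42% GC and -0.28 over 58% GC. By length of the longest transcript it was 0.32 up to 1000 bases and -0.15 at 4000 to 8000 bases.

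By rule, the 15 genes each way with the smallest p among those whose groups did not overlap are described here, so each lies beyond either control by choice. Ccn4, a secreted matricellular protein of the WNT pathway, had 1 and 8 counts in the SRC-3KO libraries against 1139 and 256 counts in the wild-type and Foxp3-Cre controls. That is 0.0363 and 0.281 CPM against 45.3 and 9.77 CPM, far apart in every pairing. Prr11, a cell cycle gene, stood at 0.508 and 0.422 CPM against 47.0 and 5.72 CPM. Phf19, a Polycomb partner that binds methylated histone H3, stood at 0.871 and 0.563 CPM against 53.6 and 6.71 CPM. Both genes were under 1 CPM in SRC-3KO and well counted in both controls, with the wild-type control higher. Aurkb, the Aurora B kinase of the chromosomal passenger complex (mm10 chr11:69045647-69051664, plus strand), stood at 3.23 and 5.52 CPM against 284 and 30.6 CPM. Its log2 fold change was -5.17 (SE 1.36), and it was -2.92 against the Foxp3-Cre control alone.

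In some of the 15 lower genes the controls lay close together. Galnt12, an enzyme that starts O-linked glycosylation, stood at 3.52 and 3.97 CPM against 29.4 and 26.8 CPM, a log2 fold change of -2.91 (SE 0.81). Zbtb48, a zinc finger protein that binds telomere repeats, stood at 2.21 and 2.60 CPM against 24.3 and 20.5 CPM (-3.21, SE 0.87). Egfl7, a secreted protein best known from blood vessels, stood at 1.85 and 3.20 CPM against 35.2 and 21.1 CPM. For these 3 genes the gap between groups was wider than the gap within either group. Kif22, a chromosome-bound kinesin, stood at 4.25 and 1.44 CPM against 59.0 and 22.1 CPM. Cit, the citron kinase of cytokinesis, stood at 1.45 and 0.985 CPM against 47.0 and 6.37 CPM. Angptl4, an inhibitor of lipoprotein lipase and a known target of PPAR receptors, stood at 2.21 and 3.48 CPM against 76.7 and 22.8 CPM. Irf5, an interferon regulatory factor, stood at 1.89 and 1.62 CPM against 56.0 and 7.59 CPM. In these last 4 genes, too, the wild-type control was the higher of the controls. The other 4 lower genes were Gramd1a, a cholesterol transfer protein, Man2a2, a Golgi mannosidase, Ppp1r16a and Dalrd3.

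The 15 higher genes include enzymes, zinc finger genes and a DNA damage kinase. Samd9l (mm10 chr6:3372257-3399572, minus strand), an interferon-inducible gene that restrains growth, had 985 and 338 counts in the SRC-3KO libraries, 1 count in the wild-type and 0 in the Foxp3-Cre control. A count of 0 allows up to 0.114 CPM there, against 35.7 and 11.9 CPM in SRC-3KO. Kyat3, a kynurenine aminotransferase, stood at 25.0 and 41.3 CPM against 1.59 and 0.458 CPM. Zscan12, a zinc finger gene, stood at 19.6 and 18.1 CPM against 1.31 and 1.68 CPM, a log2 fold change of 3.65 (SE 0.92). Both controls were at a low level in these genes, and both SRC-3KO libraries were well above it. Atm, the kinase that signals DNA double-strand breaks, stood at 32.7 and 32.0 CPM against 4.97 and 3.82 CPM (2.88, SE 0.80). Tasp1, the protease that cleaves MLL proteins, stood at 61 and 50 CPM against 7.31 and 11.4 CPM. For Atm and Tasp1 the 2 libraries of each group were near each other and the groups lay several-fold apart. H2-Aa, a chain of the MHC class II molecule made by antigen-presenting cells, stood at 69.5 and 36.2 CPM against 9.34 and 11.2 CPM. For H2-Ab1, the chain it pairs with, the groups overlapped, at 107 and 52.5 CPM against 167 and 34.6 CPM. H2-Aa is also in the list of B cell markers, and 1 other of its 12 tested members was higher: Cd79b, a signalling chain of the B cell receptor, at 38.6 and 17.5 CPM against 1.79 and 6.68 CPM. The higher members were 16.7% of that list, against 23.8% of all genes, and 0 members were lower. The list's sum did not separate the groups, at 1494 and 756 CPM against 1224 and 1630 CPM. Ctso, a cysteine protease, Zfp317 and Tcp11l2 were higher by log2 fold changes of 3.43, 3.06 and 3.29.

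**Figure D3:**
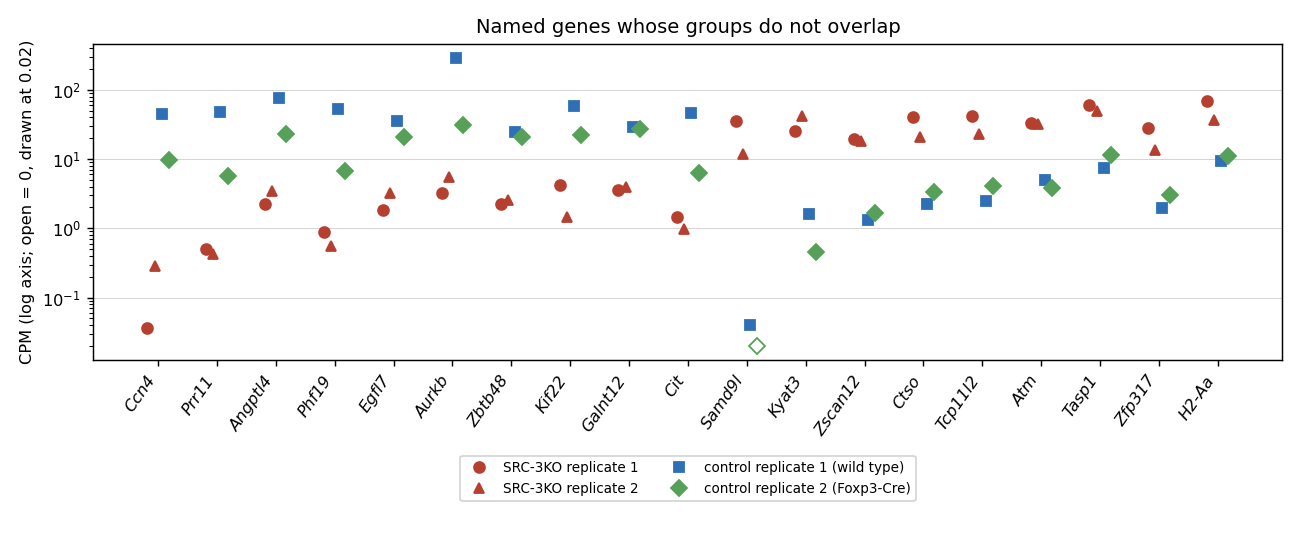
The CPM of 10 lower and 9 higher named genes is plotted on a log axis for each library, with an open symbol for a count of 0. In every gene both red symbols (SRC-3KO) lie on the same side of the blue squares (wild type) and the green diamonds (Foxp3-Cre), for instance Atm at 32.7 and 32.0 CPM against 4.97 and 3.82 CPM.

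Genes of mitosis were lower as a list against each control. Of 40 members, all tested, 17 (42.5%) were lower than both controls in each SRC-3KO library and 2 higher, against 16.9% and 23.8% of all genes. The median log2 fold change was -1.21, and it was -1.69 against the wild-type and -0.50 against the Foxp3-Cre control alone, where the medians over the genes of the 4-library test (14827 and 14768 fitted) were -0.01 and 0.06. Trend-removed, 21 members were lower and 0 higher, with a median of -1.40. Against the Foxp3-Cre control alone 22 members were lower and 10 higher, against 31.2% and 45.9% of all genes. Against the wild-type control alone 30 were lower and 5 higher, against 46.1% and 44.7%. The 2 higher members were Bub3 and Nusap1. Members named here beyond Aurkb, Ccna2, Incenp, Mki67 and Ncapd2 were chosen after their values were seen.

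Promoters of lower members are shown because this family is known to share promoter elements, the cell cycle genes homology region (CHR, TTTGAA) and CCAAT boxes. Capitals mark TTTGAA and CCAAT on the printed strand or, as TTCAAA and ATTGG, on the other. Each runs 5′ to 3′ from 250 bases before the start site to 50 after it, from RefSeq on GRCm38.p6.
Mki67, chr7:135716330-135716629, minus strand: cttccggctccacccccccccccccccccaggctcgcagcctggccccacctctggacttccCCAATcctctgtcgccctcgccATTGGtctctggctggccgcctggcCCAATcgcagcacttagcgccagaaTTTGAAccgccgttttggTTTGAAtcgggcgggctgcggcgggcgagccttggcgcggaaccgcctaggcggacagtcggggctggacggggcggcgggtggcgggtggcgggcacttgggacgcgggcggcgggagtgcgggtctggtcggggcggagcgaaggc
Cdc20, chr4:118437294-118437593, minus strand: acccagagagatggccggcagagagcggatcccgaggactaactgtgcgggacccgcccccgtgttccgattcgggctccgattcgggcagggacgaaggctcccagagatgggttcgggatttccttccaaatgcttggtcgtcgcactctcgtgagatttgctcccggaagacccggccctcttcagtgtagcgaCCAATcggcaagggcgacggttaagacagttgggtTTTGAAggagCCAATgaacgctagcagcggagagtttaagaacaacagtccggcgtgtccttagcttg
Prc1, chr7:80294201-80294500, plus strand: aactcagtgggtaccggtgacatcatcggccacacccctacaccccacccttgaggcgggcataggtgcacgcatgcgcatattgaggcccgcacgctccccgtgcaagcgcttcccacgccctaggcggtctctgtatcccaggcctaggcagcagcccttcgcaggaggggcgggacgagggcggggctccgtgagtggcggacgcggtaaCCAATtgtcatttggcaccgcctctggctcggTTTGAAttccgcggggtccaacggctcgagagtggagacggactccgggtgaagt
Ccnb2, chr9:70421505-70421804, minus strand: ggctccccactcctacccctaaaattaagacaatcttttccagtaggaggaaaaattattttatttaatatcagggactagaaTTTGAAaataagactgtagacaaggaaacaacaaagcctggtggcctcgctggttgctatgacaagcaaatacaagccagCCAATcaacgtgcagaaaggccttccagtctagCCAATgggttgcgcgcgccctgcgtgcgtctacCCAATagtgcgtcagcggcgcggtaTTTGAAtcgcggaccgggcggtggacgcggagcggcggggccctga
Both motifs, searched on both strands, occurred together in 10 of the 13 promoters (76.9%) listed for 12 of the 17 lower members. They occurred together in 28 of 36 promoters (77.8%) of the whole list, 5.15% of promoters of tested genes and 6.95% of all 32851 promoters in the table. The lower members thus held the pair as often as the list did. The E2F motif TTTCGCGC or TTTGGCGC was in 1 of the 13 promoters (7.69%), in 2 of the 36 of the whole list (5.56%), in 1.61% of promoters of tested genes and in 0.813% of all promoters. A match is a description of the letters and does not show binding.

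Members of the chromosomal passenger complex and the condensin subunit Ncapd2 were among the lower mitosis genes. Incenp, the scaffold that carries Aurora B, stood at 7.26 and 7.88 CPM against 169 and 16.1 CPM in the wild-type and Foxp3-Cre controls. Birc5, the survivin subunit of the same complex, stood at 35.2 and 65.3 CPM against 196 and 81.5 CPM. Ncapd2 stood at 4.03 and 8.12 CPM against 141 and 10.6 CPM. In all 3 genes the wild-type control was highest and the Foxp3-Cre control lay above both SRC-3KO libraries. Among the cyclins, Ccna2 stood at 5.23 and 10.8 CPM against 363 and 23.6 CPM, a log2 fold change of -4.59 (SE 1.49). Ccnb2, a cyclin of mitotic entry, stood at 19.3 and 23.0 CPM against 97.0 and 35.8 CPM. Ccnb1 stood at 18.7 and 30.7 CPM against 33.9 and 46.2 CPM, and here the Foxp3-Cre control was the highest library. Mki67, the Ki-67 protein that coats mitotic chromosomes and serves as a marker of dividing cells, stood at 16.7 and 18.4 CPM against 312 and 37.0 CPM. Its log2 fold change was -3.32 (SE 1.20) over both controls and -1.19 against the Foxp3-Cre control alone.

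The microtubule bundler Prc1 stood at 4.32 and 7.67 CPM against 19.0 and 23.5 CPM, with controls closer to each other than to SRC-3KO. Cenpf, a kinetochore protein, stood at 7.15 and 16.1 CPM against 20.5 and 34.5 CPM. Hmmr, a spindle protein, stood at 12.2 and 17.4 CPM against 29.7 and 27.2 CPM. In these 3 genes the wild-type control was not far from the Foxp3-Cre control, unlike for Aurkb or Ccna2. Cdc20, the activator of the anaphase-promoting complex, stood at 15.1 and 22.6 CPM against 791 and 23.4 CPM, so the nearer SRC-3KO library was almost level with the Foxp3-Cre control. Plk1, the Polo kinase, overlapped, at 5.91 and 3.02 CPM against 233 and 2.29 CPM, and its sign turned without the wild-type control (0.87). Several abundant members did not separate the groups: Smc2 stood at 166 and 205 CPM against 35 and 186 CPM, and Cdk1 at 58.5 and 109 CPM against 67.6 and 121 CPM. The summed level of the list was 1198 and 1663 CPM against 4434 and 1646 CPM, so by the sum 1 SRC-3KO library was level with the Foxp3-Cre control. The SRC-3KO libraries differed here as well: replicate 1 lay below replicate 2 in 34 of the 40 members (85%), against 56.5% of all genes tested, and leaving replicate 1 out took the list's median to -0.86.

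Genes of DNA replication held a smaller share of lower members than mitosis. Of 42 tested, 10 (23.8%) were lower and 6 higher, and trend-removed 16 were lower and 4 higher. The median log2 fold change was -0.45 (-0.34 trend-removed), and it was -0.40 against the wild-type and -0.25 against the Foxp3-Cre control alone. E2f1 and E2f2, activators of S phase genes, were lower: E2f1 stood at 3.96 and 4.01 CPM against 72.6 and 9.88 CPM, and E2f2 at 3.63 and 2.36 CPM against 48.3 and 6.79 CPM. Uhrf1, which maintains DNA methylation at replication forks, stood at 11.2 and 31.1 CPM against 274 and 46.7 CPM. Rrm2, the small subunit of ribonucleotide reductase, stood at 88.9 and 124 CPM against 2336 and 136 CPM, so the difference from the Foxp3-Cre control was small. The helicase subunit Mcm6 was higher, at 332 and 347 CPM against 143 and 295 CPM. Among 16 tested cell cycle brakes and D cyclins, 4 (25%) were lower and 3 (18.8%) higher, also trend-removed. Of all genes 16.9% were lower and 23.8% higher. The list's median log2 fold change was -0.10, and the members described next are lower ones. Ccnd3, the D cyclin of lymphocytes, stood at 27.8 and 29.5 CPM against 421 and 54.1 CPM. Cdkn2c, the CDK inhibitor p18, stood at 6.06 and 2.60 CPM against 64.2 and 10.8 CPM, lower like the cyclin. Klf4, a transcription factor that holds T cells in quiescence, had almost no counts in SRC-3KO (0 and 0.281 CPM against 17.8 and 3.05 CPM).

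**Figure D4:**
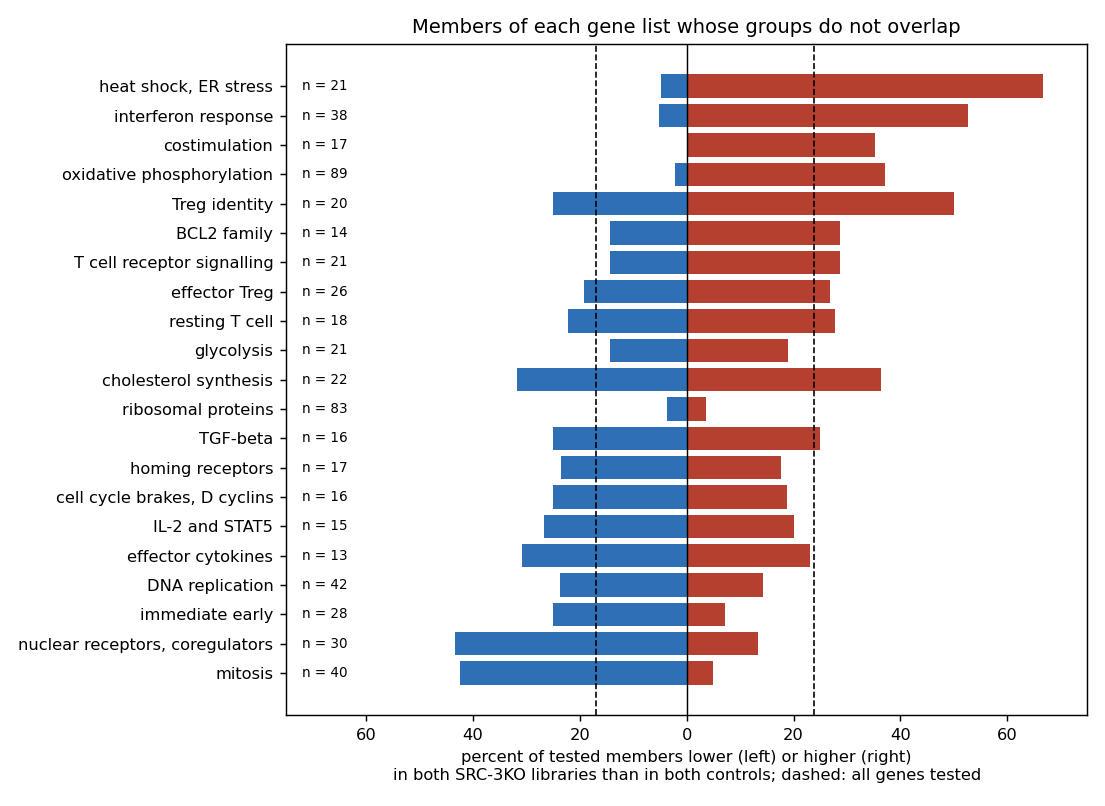
For each gene list except cell type markers and sex-linked genes, bars to the left give the percent of tested members for which both SRC-3KO libraries lay below both controls, and bars to the right the percent higher; dashed lines give the same for all genes tested (16.9% and 23.8%). Mitosis (42.5%) and the nuclear receptors with their coregulators (43.3%) reach farthest to the left of the lists drawn, and heat shock and endoplasmic reticulum (ER) stress (66.7%) and interferon response (52.6%) farthest to the right.

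Nuclear receptors and their coregulators, the partners of SRC-3, also held many lower members. Of 30 tested, 13 (43.3%) were lower and 4 higher, Ncoa3 itself among the lower. The median log2 fold change was -1.33, and it was -1.86 against the wild-type and -0.42 against the Foxp3-Cre control alone. Trend-removed it was -0.37, with 12 lower and 4 higher. Vdr, the vitamin D receptor, had 0 counts in both SRC-3KO libraries, 228 in the wild-type and 88 in the Foxp3-Cre control. Taking 3 counts per library as what a count of 0 allows, it was at least 30.9-fold lower than in the Foxp3-Cre control and at least 83.3-fold lower than in the wild-type control. Rxra, the common partner receptor, stood at 2.58 and 3.97 CPM against 75.5 and 7.90 CPM. Rara, a retinoic acid receptor, stood at 11.5 and 11.8 CPM against 41.7 and 17.2 CPM. Among the enzymes, the arginine methyltransferase Carm1 stood at 7.15 and 4.40 CPM against 51.3 and 14.0 CPM. The acetyltransferase Kat2b stood at 7.48 and 2.53 CPM against 18.4 and 27.2 CPM, and Ep300 (p300) at 7.80 and 13.1 CPM against 51.5 and 17.6 CPM. Kat2b was the 1 of these 3 with the Foxp3-Cre control highest. The higher members were Ncoa7, at 58.2 and 66.2 CPM against 10.6 and 20.2 CPM, Med1, Nr3c1 and Prmt1. Med1, the Mediator subunit that binds nuclear receptors, was level with the wild-type control (107 and 108 CPM against 105 CPM) and above the Foxp3-Cre control (48.7 CPM).

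Interferon response genes were mostly higher. Of 38 tested, 20 (52.6%) were higher and 2 lower, and the median log2 fold change was 0.90, against 2.79 and 0.28 over the wild-type and Foxp3-Cre controls alone. Trend-removed, 18 were higher and 1 lower. Usp18, which removes ISG15 from proteins, stood at 33.2 and 62.8 CPM against 4.25 and 15.7 CPM. Oas1a, a sensor of double-stranded RNA, stood at 7.80 and 6.26 CPM against 1.31 and 1.22 CPM. Xaf1, a proapoptotic interferon-induced gene, stood at 50.1 and 34.5 CPM against 0.0397 and 8.58 CPM. For these 3 genes both controls were at least 2-fold below both SRC-3KO libraries. Iigp1, an immunity-related GTPase, stood at 612 and 559 CPM against 17.6 and 310 CPM. Stat2, the signalling factor that combines with Irf9, was 1 of the 2 lower members, at 8.67 and 5.38 CPM against 23.4 and 16.5 CPM. Other members were level with the Foxp3-Cre control: Igtp stood at 1010 and 982 CPM against 1018 CPM, and Gbp2 at 233 and 221 CPM against 228 CPM.

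Chaperones and ER stress genes had the highest share of higher members. Of 21 tested, 14 (66.7%) were higher and 1 lower, with a median log2 fold change of 0.98, and of 2.20 and 0.41 against the wild-type and Foxp3-Cre controls alone. Trend-removed, 12 were higher and 0 lower. Hspa5, the ER chaperone BiP, stood at 744 and 707 CPM against 152 and 505 CPM. Hspa8, the constitutive cytosolic HSP70, stood at 2913 and 3166 CPM against 348 and 1927 CPM. Dnaja1, its cochaperone, stood at 624 and 646 CPM against 41.1 and 359 CPM. The Foxp3-Cre control lay between the wild-type control and SRC-3KO in each. Dnajb9, an ER cochaperone, was the member with controls close together, at 11.4 and 15.5 CPM against 4.45 and 3.70 CPM. Xbp1, a transcription factor of the unfolded protein response and of plasma cells, stood at 141 and 154 CPM against 57.7 and 92.6 CPM. Plasma cell markers, Xbp1 among them, summed to 508 and 322 CPM against 172 and 849 CPM, and their part in this was not tested.

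Mitochondrial and ribosomal genes differed from the wild-type control and less from the other. Of 89 tested genes of oxidative phosphorylation encoded in the nucleus, 33 (37.1%) were higher and 2 lower (29 and 2 trend-removed), yet the median against the Foxp3-Cre control alone was 0.00, against 2.80 for the wild-type control alone. Of 83 ribosomal protein genes, 3 were higher and 3 lower, and trend-removed 1 was higher and 6 lower. Of the 83, 69 were higher than in the wild-type control (44.7% of all genes were). Against the Foxp3-Cre control 51 of them were lower (31.2% of all genes were). Their median was 2.21 against the wild-type and -0.34 against the Foxp3-Cre control alone. Rpl10a, 1 of the lower members, stood at 77.3 and 91.1 CPM against 322 and 154 CPM.

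Genes of effector Tregs split. Of 26 tested, 5 were lower and 7 higher (4 and 6 trend-removed), and the median was -0.31 against the wild-type and 0.53 against the Foxp3-Cre control alone. The lower genes included lineage factors of helper T cells: Tbx21 (T-bet) stood at 20.6 and 34.2 CPM against 207 and 55.7 CPM, and Gata3 at 57.1 and 65.7 CPM against 309 and 92.6 CPM. Tnfrsf9, the costimulatory receptor 4-1BB, was higher, at 1094 and 937 CPM against 100 and 469 CPM. Of 17 costimulation and checkpoint genes 6 (35.3%) were higher and 0 lower, also trend-removed. Of all genes 23.8% were higher and 16.9% lower. The list's median log2 fold change was 2.53 against the wild-type and 0.24 against the Foxp3-Cre control alone. Cd200, an inhibitory ligand, stood at 614 and 563 CPM against 57.2 and 283 CPM. Cd80, a ligand of CD28 and CTLA-4, stood at 11.8 and 5.59 CPM against 0.675 and 0.191 CPM. Fasl, the death ligand, stood at 31.7 and 38.3 CPM against 15.8 and 14.1 CPM. For Cd80 and Fasl the controls were close to each other.

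Among 18 resting T cell genes, 4 were lower and 5 higher (4 and 4 trend-removed), and the median went from 0.13 to -0.19 trend-removed. Satb1, a chromatin organizer, stood at 78.5 and 67 CPM against 330 and 176 CPM, and Tcf7, the transcription factor TCF-1, at 37.4 and 52.2 CPM against 282 and 72.1 CPM. Id3, an inhibitor of E proteins, was higher, at 277 and 200 CPM against 83.5 and 129 CPM. Of 17 homing receptors, 4 were lower and 3 higher (3 and 2 trend-removed). Cxcr6 stood at 41.5 and 47.2 CPM against 4.13 and 15.7 CPM. The integrin chain Itgal, part of LFA-1, stood at 72.9 and 75.9 CPM against 302 and 127 CPM. The effector, resting and homing lists held lower and higher members at shares near those of all genes.

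Signalling lists depended on the control. For the IL-2 and STAT5 list (15 tested, 4 lower, 3 higher) the median was -1.90 against the wild-type and 0.17 against the Foxp3-Cre control alone. Trend-removed, 4 were lower and 2 higher, and the median over both controls went from -1.09 to -0.12. Stat5a, which carries the IL-2 signal to Foxp3, stood at 56.0 and 52.3 CPM against 264 and 102 CPM, and Il4ra at 26.9 and 42.2 CPM against 179 and 66.5 CPM. Both genes were lower than either control. The TGF-beta list (16 tested, 4 lower, 4 higher) gave -1.67 and 0.25, and trend-removed 3 were lower and 3 higher. Its receptor genes diverged: Tgfbr1, the signalling receptor, stood at 76.0 and 68.2 CPM against 12.4 and 33.0 CPM, and Tgfbr3, the coreceptor betaglycan, at 2.58 and 1.62 CPM against 36.0 and 5.84 CPM. The T cell receptor signalling list (21 tested, 3 lower, 6 higher) gave -0.88 and 0.31. Trend-removed, 1 was lower and 11 higher, and the median over both controls changed sign, from -0.34 to 0.20. Cd2, an adhesion receptor of T cells, was higher, at 4758 and 4382 CPM against 249 and 2758 CPM. Immediate early genes (28 tested, 7 lower, 2 higher) gave -1.58 and 0.38, and trend-removed 7 were lower and 5 higher. Ier3 stood at 2.43 and 3.41 CPM against 54.4 and 10.6 CPM, and Tnfaip3, the NF-kappaB inhibitor A20, at 7.40 and 7.77 CPM against 17.1 and 27.4 CPM.

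Of 13 tested effector cytokines 4 were lower and 3 higher, with a median log2 fold change of -0.82. Against the wild-type and Foxp3-Cre controls alone the median was -0.75 and 0.12, so its sign depended on the control. Trend-removed, 5 were lower and 0 higher, with a median over both controls of -1.98. Il2, the growth factor that Tregs consume and normally do not make, stood at 3.30 and 3.41 CPM against 6.48 and 49.2 CPM, with the Foxp3-Cre control far above the other 3 libraries. Csf2 (GM-CSF) stood at 0.617 and 1.13 CPM against 6.56 and 5.99 CPM, low in both groups and lower in SRC-3KO. The chemokine Xcl1 stood at 35 and 14.3 CPM against 5.56 and 8.77 CPM.

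In metabolism, 3 of 21 glycolytic genes were lower and 4 higher (5 and 3 trend-removed), with medians of -1.87 against the wild-type and 0.13 against the Foxp3-Cre control alone. Against the Foxp3-Cre control alone 15 of them were higher and 3 lower, against 45.9% and 31.2% of all genes. Against the wild-type control alone 5 were higher and 16 lower, against 44.7% and 46.1%. Pfkl, a phosphofructokinase and a lower member, stood at 24.4 and 15.1 CPM against 177 and 41.4 CPM. Of 22 cholesterol genes 7 were lower and 8 higher (8 and 7 trend-removed). Lss, lanosterol synthase, stood at 4.28 and 4.89 CPM against 71.2 and 10.4 CPM, and Dhcr7, the last step of the pathway, at 2.50 and 5.94 CPM against 53.4 and 11.1 CPM. Both genes were lower than in either control, while the list as a whole was split. Of 14 BCL2 family and death receptor genes 2 (14.3%) were lower and 4 (28.6%) higher (3 and 4 trend-removed). These shares were near the 16.9% and 23.8% of all genes. The list's median log2 fold change was -0.28, and the members described next are higher ones. Fas stood at 195 and 139 CPM against 4.65 and 85.8 CPM, and its signalling protease Casp8 at 295 and 295 CPM against 21.1 and 160 CPM.

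Against 1 control at a time, the number of calls differed widely. With the wild-type control alone, edgeR called 7434 of 16963 genes (43.8%), 3664 lower (21.6%) and 3770 higher (22.2%). That fit sets 2 libraries against 1 and assumes that the lone control varies like the SRC-3KO pair. The genes with the smallest p included Lars2, the mitochondrial leucyl-tRNA synthetase, at 259 and 229 CPM against 11789 CPM, with 219 CPM in the Foxp3-Cre control. Penk, the enkephalin precursor, stood at 158 and 173 CPM against 1652 CPM, with 141 CPM in the Foxp3-Cre control. On the higher side B2m, the light chain of MHC class I, stood at 5707 and 6024 CPM against 92.1 CPM, with 4267 CPM in the Foxp3-Cre control. In these genes the Foxp3-Cre control was near SRC-3KO and the wild-type control was the library apart. Lars2 was high in the same library as Gm23935 and the rRNA gene CT010467.1, which stood there at 21650 and 16870 CPM. Whether the counts of Lars2 there come from its mRNA was not tested.

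With the Foxp3-Cre control alone, edgeR called 1 of 15919 genes (0.00628%), and 3073 had an unadjusted p under 0.05. The gene was S100a9, a calcium-binding protein of neutrophils, which fell (adjusted p = 0.0404): it had 1 and 0 counts in the SRC-3KO libraries, 2763 in the Foxp3-Cre control and 0 in the wild-type control. Its partner S100a8 had 0 counts in 3 libraries and stood at 51.9 CPM in the Foxp3-Cre control, at least 437-fold higher. Ngp, a neutrophil granule protein, stood at 124 CPM there and at 0.0397 CPM or less in the others. The transcripts of neutrophils were thus a feature of 1 control library.

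**Figure D5:**
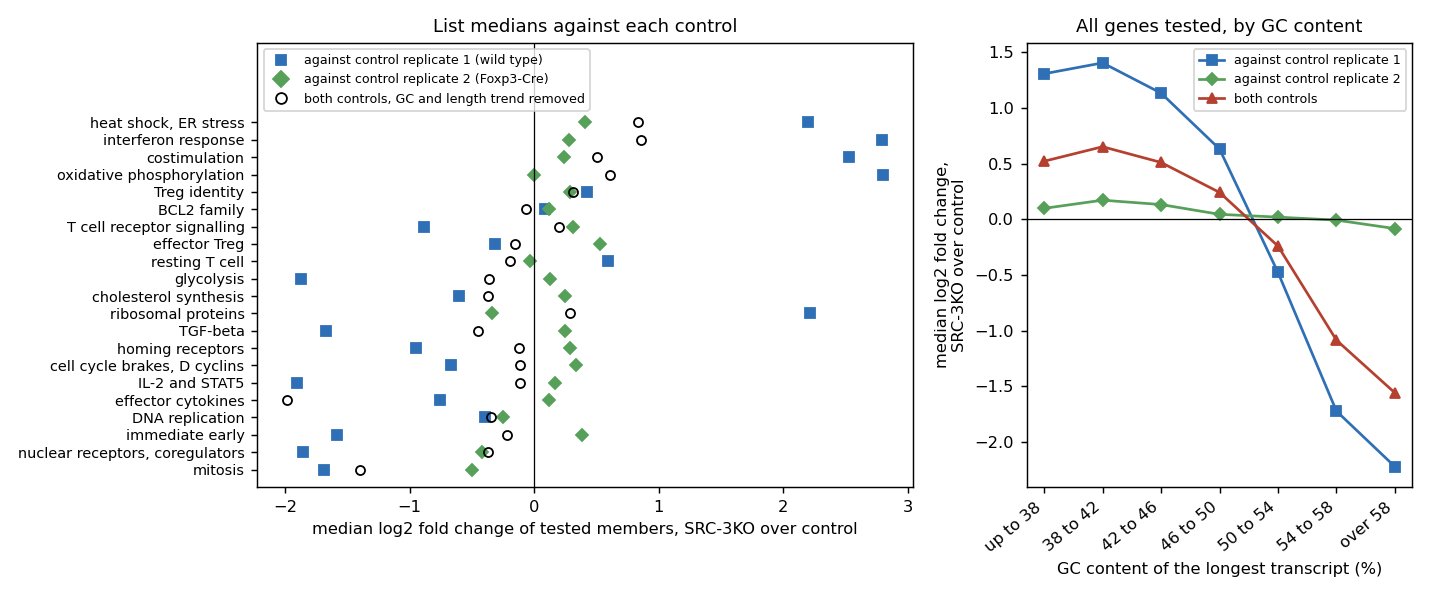
Left, for each list except cell type markers and sex-linked genes, the median log2 fold change of tested members is plotted against the wild-type control (blue squares), the Foxp3-Cre control (green diamonds) and both after removal of the GC and length trend (open circles). Right, the median over all genes tested is plotted by GC content of the longest transcript, from 1.31 to -2.22 against the wild-type and from 0.10 to -0.08 against the Foxp3-Cre control; mitosis is, of the lists drawn, farthest below 0 against the Foxp3-Cre control (-0.50).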

How the data were processed

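Total RNA of sorted splenic Tregs was made into SMART-Seq v4 libraries (full-length cDNA amplified from little RNA). Per the labels, the authors used the build mm10 and FastQC, Trim Galore, STAR, featureCounts and edgeR, and the deposited table of the 4 tumor-free libraries holds raw counts per gene. Versions, strand setting and annotation release are not stated in those sources, so reads of overlapping or antisense genes cannot be told apart. A deposited table of the 4 tumor libraries was not used here. Genes were matched by ID to GENCODE vM21 for position, GC content and length (55141 of 55487 matched, 99.94% of tested genes with values).

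Counts were tested with edgeR 4.0.16 (R 4.3.3): filterByExpr, TMM factors, glmQLFit and glmQLFTest, Benjamini-Hochberg adjustment over all genes tested, threshold 0.05. List medians, gene counts and CPM come from that fit. A member was counted lower or higher where both SRC-3KO libraries lay below or above both controls. Members and lists were chosen with earlier results of these data known. Genes named were Ncoa1 to Ncoa3, Foxp3 and sex-linked genes, the 15 genes each way with the smallest p whose groups did not overlap at a mean of at least 10 CPM (without predicted, ribosomal and receptor segment genes), up to 5 members per list by p (marker lists by level), and up to 10 genes each way called in each fit with 1 control. Others were chosen after their values were seen, and some that the rule names are not reported here. Alternatives were DESeq2 1.42.0, limma-voom (limma 3.58.1), other scalings, filters and gene sets, leaving out each library and, chosen after seeing the data, removal of each library's trend with GC content and length (lowess span 0.3). On simulated data of these libraries, the pipeline at a dispersion of 0.1 (14555 genes) found 32% of the genes set to change by a log2 of 1.5 and 96% of those set to change by 3, and 3 of its 131 calls were false. At the dispersion of these data, 0.791 (14244 genes), it found 0.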

Additional observations from a re-analysis of the deposited data

How the results depend on the processing

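Precision is set by 2 libraries a group and by the distance between the controls. The common dispersion was 0.791 with the 4 libraries, 0.291 without the wild-type control and 0.310 without the Foxp3-Cre control, where the lone control has no spread of its own. The number of genes called lower was 0 with edgeR, 69 with DESeq2, 60 with edgeR and no filter on low counts, and 0 to 3664 on leaving out each library in turn. For genes called higher these values were 0, 18, 10 and 0 to 3770. Both upper ends came without the Foxp3-Cre control, and leaving out either SRC-3KO library called 0. With no filter, both SRC-3KO libraries exceeded both controls for 13.3% of genes. The all-gene median log2 fold change was -0.02, and -0.15 with DESeq2 and with median-of-ratios factors, -0.14 with library totals, 0.24 with limma-voom, -0.76 with no filter and -0.16 without the Foxp3-Cre control, over the 16963 genes tested there. Leaving out libraries gave -2.00 to -0.80 for Ncoa3 and -3.89 to -0.48 for Foxp3, and removing the GC and length trend gave -0.89 and -1.67.

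Of 120 genes given values, 12 changed the sign of their log2 fold change without the wild-type control. Over the left-out libraries they ranged as follows: Ncoa1 -1.85 to 0.19, Ncoa2 -0.76 to 0.49, Ctla4 -0.055 to 2.09, Plk1 -5.72 to 0.87, Gbp2 -0.11 to 4.61, H2-Ab1 -1.08 to 1.11, Igtp -0.14 to 3.32, Lars2 -5.61 to 0.056, Nkg7 -1.55 to 2.18, Penk -3.35 to 0.12, Smc2 -0.11 to 2.38 and Tmsb4x -0.060 to 6.01. Cdk1 changed sign without the Foxp3-Cre control and without SRC-3KO replicate 1 (-0.66 to 0.28), and H2-Ab1 also without SRC-3KO replicate 2. With the GC and length trend removed Ncoa2 was 0.15 and H2-Ab1 0.28, and with limma-voom Nkg7 was 0.35. The causes were not tested. No other of these genes changed sign under the alternatives tried, and DESeq2 called 16 of them. No paired analysis was possible because the labels give the tumor-free groups no shared replicate numbers.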

Other observations

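Antibody transcripts, which Tregs do not make, were present at different levels in the 4 libraries and followed no group. Igkc, the kappa light chain constant region, stood at 676 and 303 CPM in the SRC-3KO libraries, 16.7 CPM in the wild-type and 1069.8 CPM in the Foxp3-Cre control. Igha, the constant region of IgA, stood at 74.2 and 3.45 CPM against 1.15 and 204 CPM. Ighg2c, of the IgG2c class, was at 0 and 55.3 CPM against 0.0397 and 269 CPM. Jchain, the joining chain of secreted IgA and IgM, stood at 72.1 and 50.1 CPM against 0.0397 and 109 CPM. The Foxp3-Cre control was highest in all 4 genes, the SRC-3KO libraries differed from each other, and the wild-type control was at or near 0 for 2 of them.

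The wild-type control also held most of the ribosomal RNA counted. The rRNA gene CT010467.1 stood there at 16870 CPM against 572 to 657 CPM in the other libraries. Genes annotated as rRNA took 1.68% of its counts against 0.0575% to 0.0715%, and processed pseudogenes took 3.98% against 8.62% to 10.3%.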
